A study of Mus musculus with 4 samples.

Results

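Genes of nuclear factor kappa B (NF-kB), of the adaptors behind Toll-like receptors (TLRs) and of the inflammasome were examined in mouse MLL-AF9 leukaemic cells after 72 h with OHT or EtOH. The members are the rows of the authors' deposited table whose symbol names an NF-kB subunit or inhibitor, an IKK, TRAF, IRAK or RIP kinase family gene, a TLR adaptor or receptor partner, a TAK1 complex subunit, A20 or ABIN-1, or a NOD-like receptor, AIM2 or their adaptor ASC. They came to 65 transcript rows of 60 genes, out of 18061 rows of 16545 genes. The members were picked by gene name, with earlier results of these data known.

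MLL-AF9 cells model acute myeloid leukaemia, with MLL, a histone methyltransferase gene, joined to AF9. All 4 samples are C57BL/6 cells taken from mouse bone marrow and grown in liquid culture, and all share a Ring1a-/-, Ring1bf/f, Cdkn2a-/- genotype. Ring1a (Ring1) and Ring1b (Rnf2) encode ubiquitin ligases that form the core of PRC1, a Polycomb repressive complex, and Cdkn2a encodes cell-cycle inhibitors. The groups are 2 samples with EtOH (ethanol, the solvent control) and 2 with OHT (commonly short for hydroxytamoxifen, which activates recombinases that delete floxed alleles), each for 72 h. The submitters' sample titles call the OHT samples RingKO, a Ring knockout, and the EtOH samples carry no such mark. The series title concerns the upkeep of leukaemic cell identity by PRC1, and OHT against EtOH is the comparison that bears on it. OHT was not analysed here in cells that lack the floxed allele, and the labels name neither the recombinase nor the age of the mice and do not say whether samples are separate cultures or mice. The p-values thus reflect the spread of these samples alone, possibly a technical one, and an effect of OHT itself cannot be told apart from a loss of RING1B.

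NF-kB is a family of dimeric transcription factors held in the cytoplasm by IkB proteins until an IKK kinase marks the IkB for destruction. In macrophages and their precursors, TLRs at the cell surface and in endosomes reach IKK through the adaptors MyD88 and TRIF, the IRAK kinases, the ubiquitin ligase TRAF6 and the kinase TAK1. Freed NF-kB then switches on cytokine genes along with genes of its own inhibitors. Cytosolic NOD-like receptors either join this route (NOD1 and NOD2) or assemble inflammasomes, in which the adaptor ASC brings caspase-1 to its substrates interleukin-1 beta and interleukin-18.

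The deposited file gives 1 mean of normalised reads per group and transcript, and each mean resolved uniquely into whole reads of 2 libraries, called A and B in each group, with no link to the replicate numbers of the labels. Totals were 6255320 and 3841243 reads for EtOH libraries A and B and 5687967 and 4509718 for OHT libraries A and B. Library values below are solved reads divided by the size factor, and the authors' means also count 1 added read per library. Rnf2 had 828 and 448 reads in the EtOH libraries and 852 and 714 in the OHT libraries, and Ring1, labelled as deleted in all samples, had 60 and 65 with EtOH and 177 and 84 with OHT. The 2 rows of Cdkn2a, also labelled as deleted, had 57 and 101 reads with EtOH and 64 and 98 with OHT. The deleted exons are not stated, so reads over whole genes do not check the labels. Of the 11 cell type lists, T cell and NK cell markers were at or near 0 (Cd3d had 5 reads with EtOH and 4 with OHT). The B cell marker Cd79b had 151 and 297 reads and Cd79a 7 and 16. Several neutrophil and monocyte genes were abundant. The mast cell gene Cpa3 and the megakaryocyte gene Itga2b had deposited EtOH means of 1879 and 894. The other measured markers of both types had EtOH means from 1.48 (Fcer1a) to 96.0 (Mcpt8).

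With OHT, 6 of the 65 member rows rose and 1 fell at an adjusted p under 0.05, by the authors' deposited table. Over all rows the same threshold called 3.62% higher, 1.85% lower and 5.48% in either direction, and the members' shares were 9.23% higher and 1.54% lower. The 6 that rose were Traf1, Nlrc3, Cd180, Nfkbia, Nlrc5 and Ikbke, and the 1 that fell was Ticam2. At an unadjusted p under 0.05 there were 11 higher and 2 lower among the members, and 7.82% higher and 6.64% lower over all rows, in the authors' deposited table. On the log2 scale the 65 rows had a median change of 0.64 and 49 positive values, beside a median of 0.04 over all rows of the authors' deposited table. Among the 34 member rows with a mean of at least 50 the median was 0.40, against -0.12 over the 8378 such rows of the authors' deposited table.

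A fit across all transcripts with at least 10 reads in 2 libraries (limma-voom on the solved reads, Benjamini-Hochberg adjustment) covered 48 member rows. It called 11 of them higher and 1 lower, with a background of 9.72% higher and 5.49% lower over 11338 rows. Over all rows it made 1102 higher and 623 lower calls, which became 1293 and 455 under upper-quartile scaling, with the members' counts at 11 and 1 under both. The 5 calls it adds are Ripk4, Irak3, Nfkbie, Nod2 and Nlrc4, and it includes all 7 calls of the authors' deposited table. Both OHT libraries lay above both EtOH libraries in 35 member rows and below in 6, where all rows gave 26.4% above and 24.6% below. Single libraries moved these counts: limma-voom called 14 higher when EtOH library A was omitted, 6 when EtOH B was, 4 when OHT A was and 12 when OHT B was. Those are 29.2%, 12.5%, 8.33% and 25% of the 48 fitted members, beside 14.1%, 7.55%, 7.01% and 9.23% of all fitted rows in the same order, so without OHT library A the members' share was near that of all rows.

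**Figure D1:**
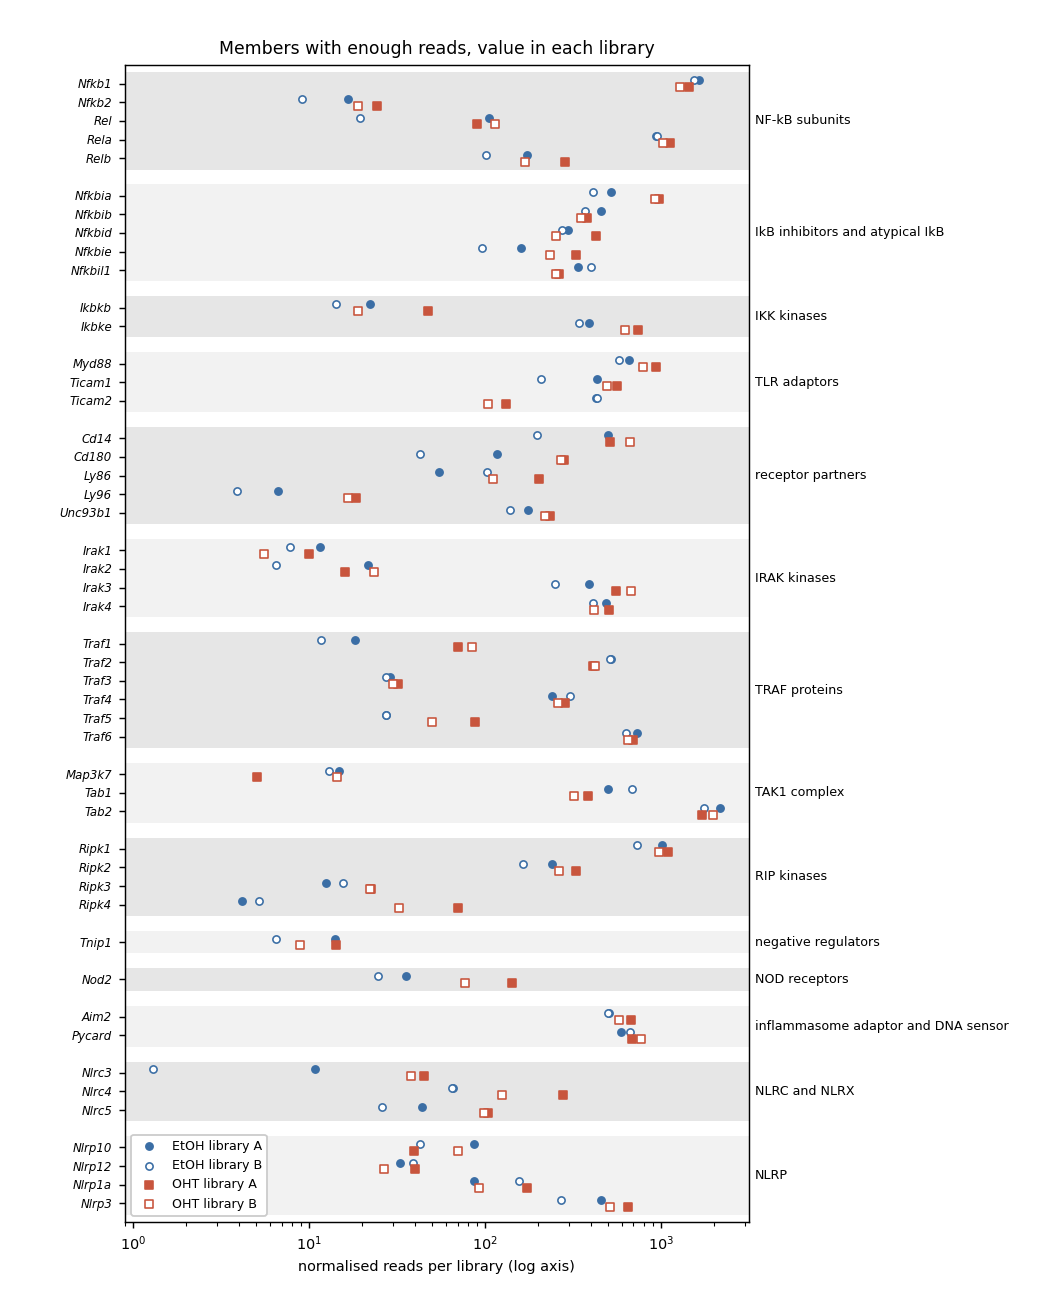
Normalised reads (solved reads divided by the size factor, log axis) of the 48 member rows with enough reads, in rows by gene and role. Circles are EtOH and squares OHT libraries, filled for library A and open for library B. The Ticam2 squares lie left of its circles, and the squares of Traf1, Cd180 and Nlrc5 lie right of theirs.

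Some markers of other cell types differed in the same comparison. Of 10 measured monocyte and macrophage markers 2 rose and 0 fell by the authors' deposited table (4 higher and 0 lower at an unadjusted p under 0.05, and 4 higher and 0 lower by limma-voom). Their summed normalised reads were 5068 and 2839 in the EtOH libraries and 7704 and 8363 in the OHT libraries. Mertk had 0 reads in EtOH library B and Cx3cr1 had 0 in EtOH library A. The 7 dendritic markers summed to 139 and 105 with EtOH and 677 and 588 with OHT, with 1 riser (Itgax) in the authors' deposited table, and Cd209a and Ccr7 had 0 reads in both EtOH libraries. The 9 neutrophil markers summed to 2579 and 5026 with EtOH and 4269 and 2935 with OHT, and the 2 groups overlapped. Single markers of 3 further lists rose in the authors' deposited table, the megakaryocyte marker Pf4 5.69-fold, the erythroid marker Epor 9.32-fold and the stromal marker Col1a1 5.69-fold. The part of these markers in the members' changes was not tested. In such bulk samples a change in the number of cells of a type and a change in RNA per cell cannot be told apart.

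The NF-kB subunits themselves did not pass the test. None of the 7 rows was called in the authors' deposited table, none had an unadjusted p under 0.05 in that table, and limma-voom called 0 of the 5 it fitted. Nfkb1, the p105 precursor of the p50 subunit, had 1660 and 1538 normalised reads in the EtOH libraries and 1444 and 1284 in the OHT libraries. Its OHT values lay below both EtOH values, with a limma-voom log2 fold change of -0.23 ± 0.20 (SE, adjusted p = 0.466). Rela, the p65 subunit that carries the activation domain of the classical dimer, had 940 and 953 with EtOH and 1130 and 1032 with OHT. By limma-voom the log2 fold change came to 0.19 ± 0.20 (SE, adjusted p = 0.553).

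Levels between subunits are given per kilobase of transcript, as the authors' EtOH mean divided by the length of the GENCODE M21 transcript paired with each row. On that scale Nfkb1 stood at 389 and Rela at 349, Relb at 62.9, Rel at 8.50 and Nfkb2 (its highest row) at 4.67. Relb, of the alternative pathway, had 174 and 102 normalised reads with EtOH and 286 and 169 with OHT, and its groups overlapped. Rel, the c-Rel subunit and picked with its values known, had 105 and 19.5 with EtOH and 90.7 and 115 with OHT, so the EtOH libraries differed more from each other than EtOH library A did from OHT. Its limma-voom estimate on the log2 scale was 0.99 ± 0.59 (SE) with all libraries, 2.33 when EtOH library A was omitted and -0.06 when EtOH B was. Nfkb2 was spread over 3 rows with deposited means of 13.9, 4.86 and 2.31 for EtOH in the authors' deposited table, which leaves it hardly measured.

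Among the IkB genes the 2 classical feedback inhibitors IkB alpha and IkB epsilon were higher with OHT, the first in both tests. Nfkbia (NM_010907), which encodes IkB alpha, had 522 and 414 normalised reads in the EtOH libraries and 973 and 928 in the OHT libraries. The groups did not overlap, and the gene rose 2.03-fold (adjusted p = 0.0171) by the authors' deposited table. Limma-voom put it at a log2 fold change of 1.02 ± 0.22 (SE, adjusted p = 0.0137), with an adjusted p of 0.0746 without OHT library A and of 0.0281 or less in the other omissions. Nfkbie had 160 and 96.4 with EtOH and 331 and 236 with OHT, 2.20-fold by the means, with adjusted p = 0.109 (the authors' deposited table) and 0.0408 (limma-voom). Its limma-voom adjusted p was 0.0960 if EtOH library B was omitted and 0.280 if OHT library A was. Nfkbib, of IkB beta, had 455 and 372 with EtOH and 384 and 353 with OHT, with overlapping groups and a limma-voom log2 fold change of -0.17 ± 0.23 (SE). The other 3 rows, Nfkbid, Nfkbil1 and Nfkbiz, passed neither test. Nfkbiz, whose protein is a nuclear cofactor of NF-kB induced by TLR signals, had 4 reads in each group.

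The promoter of Nfkbia is shown because it carries the kB element through which NF-kB is known to act on its own inhibitor, beside the promoter of Traf1, the called TRAF gene, whose window holds no such match. Sequences are RefSeq windows of GRCm38.p6, from 250 bases before to 50 bases after the gene's start, read 5′ to 3′ on the gene's strand, and the authors' own build is mm9. Capitals mark matches to the kB consensus on either strand.
Nfkbia (chr12:55492598-55492897, minus strand): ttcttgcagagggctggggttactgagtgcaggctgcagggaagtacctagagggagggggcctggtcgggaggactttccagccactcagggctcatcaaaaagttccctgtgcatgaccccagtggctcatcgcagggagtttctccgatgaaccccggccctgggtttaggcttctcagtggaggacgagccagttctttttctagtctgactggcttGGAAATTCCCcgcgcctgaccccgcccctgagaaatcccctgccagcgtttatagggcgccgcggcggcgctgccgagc
Traf1 (chr2:34961723-34962022, minus strand): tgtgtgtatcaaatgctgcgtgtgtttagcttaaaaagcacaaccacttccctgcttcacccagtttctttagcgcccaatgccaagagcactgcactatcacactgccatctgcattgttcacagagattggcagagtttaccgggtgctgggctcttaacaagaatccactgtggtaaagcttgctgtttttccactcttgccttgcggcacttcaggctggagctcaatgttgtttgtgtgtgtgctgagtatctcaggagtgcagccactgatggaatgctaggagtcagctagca

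Windows were found for 45 of the 60 member genes, 63 in all since some genes have several, and 12 of the 63 (19.0%) held a kB match, against 4.51% of 32851 windows in the table. These 12 belong to 10 genes, Nfkbia, Nfkbie, Nfkbid, Nfkb2, Rel, Tnfaip3, Tnip1, Traf3, Nlrp3 and Map3k7. Windows of 1 gene can overlap, and matches of the near-palindromic consensus can overlap each other. Of the 10 genes, 1 rose in the authors' deposited table (Nfkbia) and limma-voom called 2 higher (Nfkbia and Nfkbie). Of the 5 risers with a window (Nfkbia, Traf1, Nlrc3, Cd180 and Ikbke), 1 held a match. The first matches in genes of the NF-kB loop are shown in 30-base stretches to set their sites side by side.
Nfkbia (chr12:55492657-55492686, minus strand): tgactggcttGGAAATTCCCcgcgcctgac
Nfkbie (chr17:45555584-45555613, plus strand): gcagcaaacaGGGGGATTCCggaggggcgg
Nfkb2 (chr19:46304688-46304717, plus strand): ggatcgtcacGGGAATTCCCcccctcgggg
Rel (chr11:23771042-23771071, minus strand): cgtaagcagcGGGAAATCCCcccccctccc
Tnfaip3 (chr10:19015516-19015545, minus strand): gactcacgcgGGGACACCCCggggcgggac
Tnip1 (chr11:54962979-54963008, minus strand): ctccatcatgGGGGAATTCCcctcctgcct

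In the stretch of Nfkbia the match starts 29 bases before the gene's start, in that of Nfkb2 39 bases, in Tnip1 58, in Rel 92, in Nfkbie 106 and in Tnfaip3 125. A match describes the sequence and does not show binding. The number of CpG dinucleotides, the feature that marks promoters of the CpG island type, had a median of 13 per member window and 7 over all windows. In the 6 windows of risers it was 4.5, with 15 in that of Nfkbia and 2 to 5 in the others.

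Of the IKK genes, Ikbke rose and the subunits of the classical complex were hardly measured. Ikbke (NM_019777), whose protein IKK epsilon acts with TBK1 in antiviral signalling, had 392 and 344 normalised reads with EtOH and 747 and 630 with OHT. The groups did not overlap, and it rose 1.87-fold (adjusted p = 0.0463) in the authors' deposited table, close to the threshold. Limma-voom gave 0.89 ± 0.22 (SE, adjusted p = 0.0244), and its adjusted p was 0.248 without OHT library A. Ikbkb, the catalytic IKK beta, had 27 and 11 reads with EtOH and 57 and 17 with OHT, with overlapping groups once scaled. Ikbkg, the NEMO scaffold, had 0 reads in both EtOH libraries and 5 and 4 with OHT on the row analysed. The authors' deposited table lists 0.871 as its adjusted p.

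The TLR adaptors went in different directions, and Ticam2 showed the lowest log2 fold change of all 65 rows. Ticam2 encodes TRAM, which links TLR4 to TRIF. It had 427 and 436 normalised reads in the EtOH libraries and 132 and 104 in the OHT libraries. The EtOH libraries lay close together and both OHT libraries were far below them. Ticam2 fell 3.64-fold (adjusted p = 3.35e-06) in the authors' deposited table, with a limma-voom log2 fold change of -1.86 ± 0.26 (SE, adjusted p = 0.00342). Its log2 fold change stayed between -2.05 and -1.71 when any 1 library was left out of limma-voom, and it was called in each of these fits. The gene span of Ticam2 overlaps that of Tmed7 on the same strand in GENCODE M21, so their reads may not be separable. The authors' deposited table lists Tmed7 at means of 1381 and 1306 (adjusted p = 1).

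Ticam1, which encodes TRIF, the adaptor that TRAM recruits, had 436 and 208 normalised reads with EtOH and 564 and 498 with OHT. Both OHT values were above both EtOH values, but adjusted p was 0.593 by the authors' deposited table and 0.128 by limma-voom. Without EtOH library A limma-voom called it higher (log2 fold change 1.35, adjusted p = 0.00660). Myd88, the adaptor shared by most TLRs and the interleukin-1 receptor, had 664 and 577 with EtOH and 945 and 790 with OHT, a limma-voom log2 fold change of 0.48 ± 0.21 (SE, adjusted p = 0.155). Its gene span overlaps that of Acaa1a on the opposite strand, and the kit does not mark strand. Acaa1a was listed at means of 319 with EtOH and 449 with OHT (adjusted p = 0.521) in the authors' deposited table. The difference between the changes of Ticam2 and the other adaptors was not tested.

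All 5 receptor partner genes had higher values in both OHT libraries than in either EtOH library. The same held for 26.4% of all rows. Of the 5 genes only 1, Cd180, was called, in the authors' deposited table and by limma-voom. Cd180 (NM_008533) encodes RP105, a TLR4 relative without a signalling TIR domain. It had 117 and 43.0 normalised reads with EtOH and 281 and 271 with OHT, and it rose 3.42-fold (adjusted p = 2.48e-04) in the authors' deposited table. The limma-voom log2 fold change was 1.86 ± 0.39 (SE, adjusted p = 0.0136), 2.67 with EtOH library A omitted and 1.24 with EtOH B omitted. The gene span of Cd180 overlaps that of Mast4 on the opposite strand, and the kit does not mark strand. Mast4 was listed at 8.17 and 56.3 (adjusted p = 0.00171) in the authors' deposited table.

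The partner of RP105, MD-1, is encoded by Ly86, which had 54.7 and 103 normalised reads with EtOH and 203 and 112 with OHT. On the log2 scale limma-voom put the change at 1.09 ± 0.41 (SE, adjusted p = 0.100), and 1.47 without OHT library B, where it was called (adjusted p = 0.0201). Cd14, the lipopolysaccharide co-receptor of TLR4, had 505 and 199 with EtOH and 516 and 669 with OHT. EtOH library A lay just under OHT library A, and the adjusted p was 0.867 by the authors' deposited table. For Cd14 limma-voom gave a log2 fold change of 0.82 ± 0.36 (SE, adjusted p = 0.157), 1.55 without EtOH library A (adjusted p = 0.00500) and 0.21 without EtOH library B. Ly96, the MD-2 subunit of the TLR4 complex, had 8 and 3 reads with EtOH and 22 and 15 with OHT. Unc93b1, the chaperone that carries endosomal TLRs out of the endoplasmic reticulum, had 176 and 139 normalised reads with EtOH and 234 and 219 with OHT (limma-voom adjusted p = 0.215).

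Of the IRAK kinases, the member known as a brake was the one called higher, by limma-voom alone. Irak3 encodes IRAK-M, which restrains TLR signalling in macrophages and monocytes. It had 392 and 251 normalised reads with EtOH and 560 and 677 with OHT, 1.92-fold by the means, with adjusted p = 0.0715 (the authors' deposited table) and 0.0382 (limma-voom). The limma-voom call of Irak3 did not hold without EtOH library B, OHT library A or OHT library B. Its gene span overlaps that of Tmbim4 on the opposite strand, which the authors' deposited table lists at means of 581 with EtOH and 534 with OHT. Irak4, the kinase that starts the MyD88 assembly, had 491 and 413 with EtOH and 507 and 418 with OHT, and the groups overlapped. Irak1 and Irak2 had at most 26 reads in any library and passed neither test.

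In the TRAF family Traf1 rose and the signalling core was measured well without a call. Traf1 (NM_009421), a TRAF protein without a RING domain and a known NF-kB target, had 18.2 and 11.7 normalised reads with EtOH and 70.5 and 84.8 with OHT. The groups stood far apart, with a 4.90-fold rise (adjusted p = 0.00161) in the authors' deposited table. By limma-voom the log2 fold change came to 2.31 ± 0.45 (SE, adjusted p = 0.0105), from 2.05 to 2.64 with 1 library left out, and it was called in each of these fits. Traf6, the ubiquitin ligase of the TLR route, had 738 and 637 with EtOH and 700 and 655 with OHT, with a limma-voom log2 fold change of -0.02 ± 0.21 (SE). Traf2, of the TNF receptor route, had 519 and 518 with EtOH and 414 and 425 with OHT. Its OHT values lay below, with a limma-voom log2 fold change of -0.31 ± 0.21 (SE, adjusted p = 0.352). Traf5, picked with its values known, had 27.4 and 27.3 with EtOH and 88.2 and 50.2 with OHT, a limma-voom adjusted p of 0.0728, and was called only without OHT library B (0.0354). Traf3, Traf4 and Traf7 passed neither test.

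**Figure D2:**
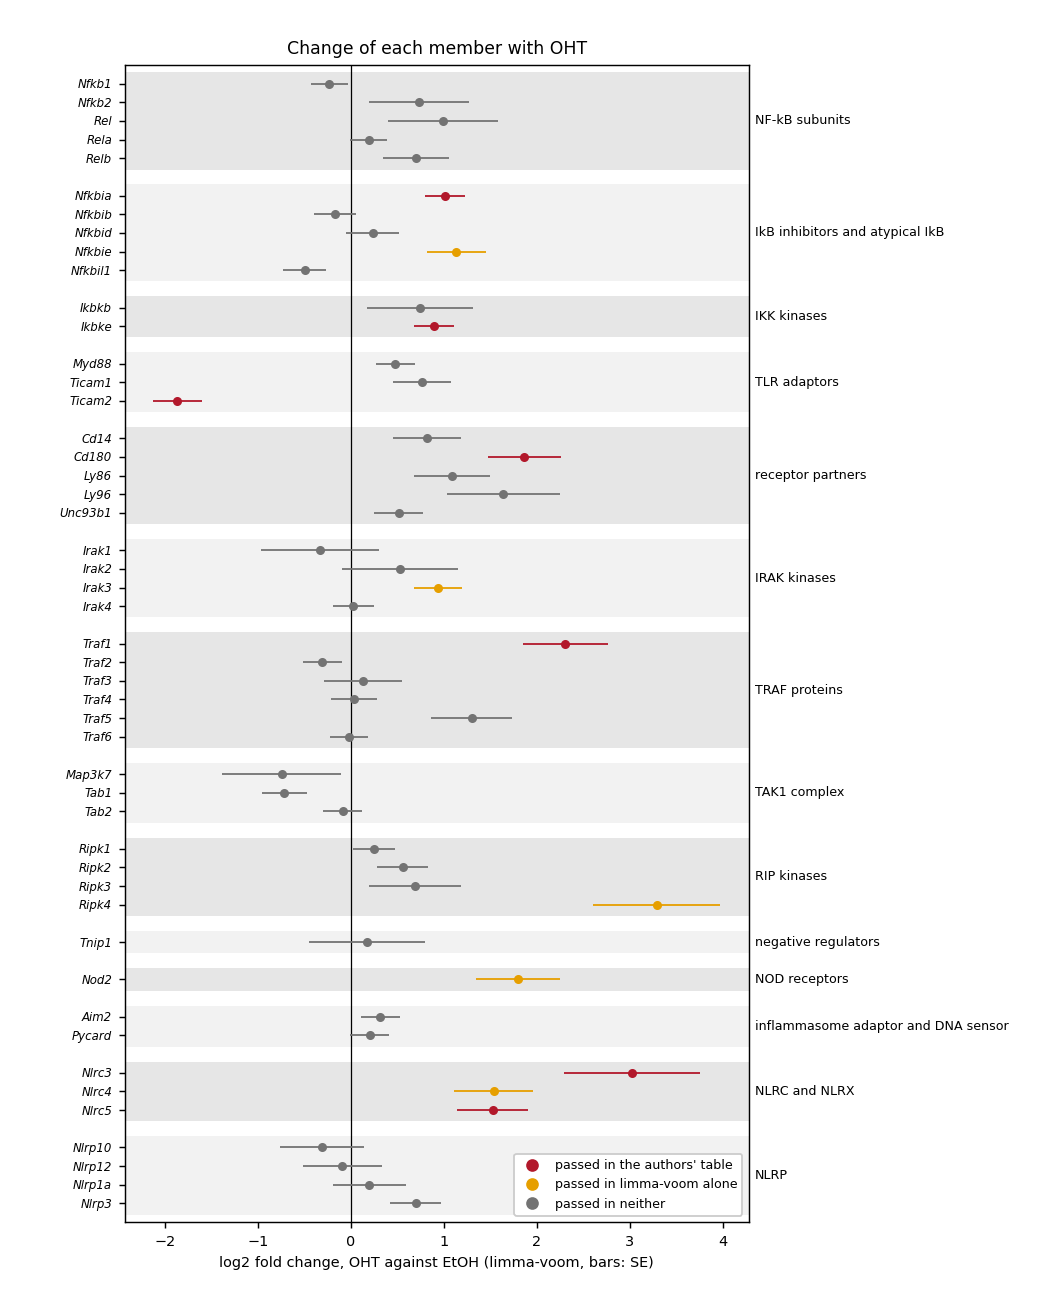
Log2 fold change of OHT against EtOH by limma-voom (x axis, bars show the SE) for the 48 fitted member rows, ordered by role. Colours mark rows past the 0.05 threshold in the authors' deposited table, in limma-voom alone, or in neither. Ticam2 is the only coloured point below 0, at -1.86, and Ripk4 lies highest at 3.29.

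All 3 member rows of the TAK1 complex had a negative log2 fold change. None of these 3 rows was called in the authors' deposited table or by limma-voom, and 1 had an unadjusted p under 0.05 there (Tab1). Tab1, the subunit that activates TAK1, had 502 and 686 normalised reads with EtOH and 387 and 322 with OHT. Both OHT values lay below both EtOH values, and the authors' deposited table lists 0.237 as the adjusted p. Limma-voom gave a log2 fold change of -0.71 ± 0.24 (SE, adjusted p = 0.0733). Limma-voom called Tab1 lower (adjusted p = 0.0138) once EtOH library A was omitted. Tab2, the subunit that binds ubiquitin chains, was among the highest members with 2188 and 1770 with EtOH and 1723 and 1993 with OHT, and its groups overlapped. Map3k7, of TAK1 itself, had 18 and 10 reads with EtOH and 6 and 13 with OHT on the row analysed.

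Among the RIP kinases, Ripk4 had the highest log2 fold change of all 65 rows, 3.19 in the authors' deposited table, from a low level. Ripk4, known for its part in keratinocyte differentiation, had 5 and 4 reads in the EtOH libraries and 84 and 29 in the OHT libraries. The read ratio per size factor was 11.9, with an exact 95% counting interval of 6.04 to 26.6. Its adjusted p was 0.0562 in the authors' deposited table, just outside the threshold, and 0.0131 by limma-voom, where it was called with any 1 library omitted. The limma-voom log2 fold change was 3.29 ± 0.68 (SE) and 2.70 without OHT library A. Ripk1, the kinase at TNF receptor complexes, had 1022 and 738 normalised reads with EtOH and 1100 and 979 with OHT, with overlapping groups. Ripk2, the kinase below NOD1 and NOD2, had 240 and 164 with EtOH and 331 and 266 with OHT, without overlap and with a limma-voom adjusted p of 0.198. Ripk3, of necroptosis, passed neither test.

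NF-kB is also restrained by the ubiquitin editor A20 and its partner ABIN-1, and both were hardly measured. Tnfaip3, of A20, had 3 and 0 reads with EtOH and 8 and 10 with OHT on its main row, a read ratio of 5.68 with an exact 95% counting interval of 1.66 to 30.1. Its adjusted p was 0.683 in the authors' deposited table, and the row was too low for limma-voom. Tnip1, of ABIN-1, had 17 and 5 reads with EtOH and 17 and 8 with OHT.

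Of the NOD-like receptors Nlrc3 and Nlrc5 rose with OHT, and Nlrc4 and Nod2 were called higher by limma-voom alone. No NLRP row was called in the authors' deposited table or by limma-voom, which fitted 4 of the 11. The 2 risers were among 5 NLRC and NLRX rows, where the authors' deposited table called 3.62% of all rows higher. Limma-voom, which added Nlrc4, called 9.72% of all fitted rows higher. Nlrc3 (NM_001081280), known as an inhibitor of innate signalling, had 13 and 1 reads with EtOH and 54 and 34 with OHT. It rose 6.00-fold (adjusted p = 0.0155) in the authors' deposited table, and the limma-voom log2 fold change of 3.02 ± 0.74 (SE, adjusted p = 0.0233) ranged from 1.92 (EtOH library B omitted) to 4.44 (EtOH library A omitted). The single read in EtOH library B makes the size of that rise uncertain. Nlrc5 (NM_001033207), the transactivator of MHC class I genes, had 44.0 and 26.0 normalised reads with EtOH and 104 and 99.4 with OHT. It rose 2.85-fold (adjusted p = 0.0299) in the authors' deposited table, with a limma-voom log2 fold change of 1.52 ± 0.38 (SE, adjusted p = 0.0262). Its gene span overlaps that of 9330175E14Rik on the opposite strand, listed at means of 2.72 with EtOH and 6.29 with OHT. The limma-voom adjusted p of Nlrc5 was 0.0736 if EtOH library B was omitted and 0.0858 if OHT library A was.

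Nlrc4, which forms an inflammasome with NAIP proteins that sense flagellin, had 66.3 and 65.1 normalised reads with EtOH and 277 and 125 with OHT. The EtOH libraries were alike and the OHT libraries differed from each other by more than 2-fold. The change was 3.03-fold by the means with the authors' deposited table giving an adjusted p of 0.373, and limma-voom gave 1.54 ± 0.42 (SE, adjusted p = 0.0373). Limma-voom lost that call without EtOH library A (adjusted p = 0.0631), EtOH library B (0.0647) or OHT library A (log2 fold change 0.92, adjusted p = 0.348). Nod2, the sensor of muramyl dipeptide, had 35.7 and 24.7 with EtOH and 143 and 77.0 with OHT. It was 3.55-fold higher by the means with the authors' deposited table giving an adjusted p of 0.135, and limma-voom gave 1.80 ± 0.45 (SE, adjusted p = 0.0254). Without EtOH library B its limma-voom adjusted p was 0.0587, and without OHT library A 0.182. Nod1 had 3 and 0 reads with EtOH and 8 and 3 with OHT. Both Nlrx1 rows had at most 3 reads in each group.

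Among the members, the inflammasome genes Pycard, Aim2 and Nlrp3 passed neither test. Pycard, of the adaptor ASC, had 598 and 672 normalised reads with EtOH and 684 and 776 with OHT, a limma-voom log2 fold change of 0.20 ± 0.21 (SE, adjusted p = 0.547). Aim2, the sensor of cytosolic DNA, had 512 and 501 with EtOH and 681 and 582 with OHT, a limma-voom log2 fold change of 0.32 ± 0.21 (SE, adjusted p = 0.340). In both genes the OHT values lay above both EtOH values by less than 1.5-fold on the means. Nlrp3, the inflammasome sensor of potassium loss, had 456 and 272 with EtOH and 656 and 518 with OHT, 1.61-fold by the means (adjusted p = 0.444, the authors' deposited table). For Nlrp3 the limma-voom estimate on the log2 scale was 0.70 ± 0.28 (SE, adjusted p = 0.114), and it was called without EtOH library A (1.10, adjusted p = 0.0150).

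None of the 11 NLRP rows was called in the authors' deposited table, and none had an unadjusted p under 0.05 there. Limma-voom fitted 4 of them and called 0, and the other 7 had too few reads. Nlrp1a, a rodent inflammasome sensor, had 87.1 and 158 normalised reads with EtOH and 173 and 92.7 with OHT, with overlapping groups. Nlrp1a, Nlrp1b and Nlrp1c-ps are near-identical neighbours, so reads may have been split or lost between them, and the 2 rows of Nlrp1b had 4 and 1 reads with EtOH against 27 and 11 with OHT. Nlrp12 and Nlrp10 had overlapping groups at 26.8 to 87.1 normalised reads. Nlrp6, best known from intestinal epithelium, had 1 and 1 reads with EtOH and 8 and 9 with OHT, a read ratio of 8.04 with an exact 95% counting interval of 1.91 to 71.8. Nlrp2, Nlrp4f and Nlrp5-ps had at most 5 reads in each group.

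**Figure D3:**
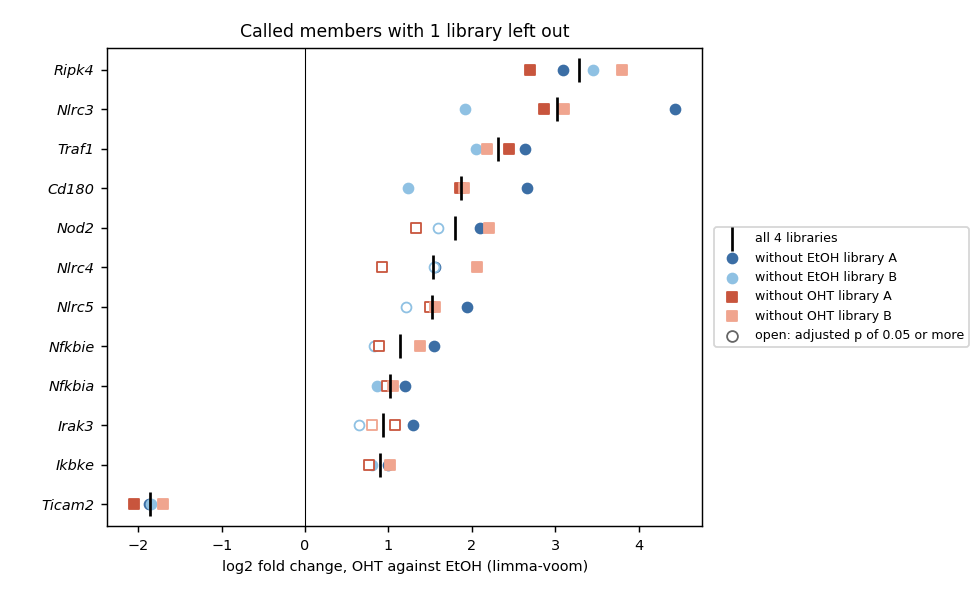
Limma-voom log2 fold change of OHT against EtOH (x axis) for the 12 members that passed in the authors' deposited table or in limma-voom. Black bars are the fit with all 4 libraries and symbols the fits without 1 library, open where the adjusted p was 0.05 or more. No omission changed a direction, Ticam2, Traf1, Cd180, Nlrc3 and Ripk4 were called in each fit, and Nlrc3 ranged from 1.92 to 4.44.

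The members differed between libraries of a group as well as between groups. In 36 of the 48 fitted rows (75.0%) EtOH library A had a higher value than EtOH library B, beside 57.5% of all fitted rows, and in OHT the same was true of 38 rows (79.2%), beside 45.4%. The EtOH libraries differed by more than 2-fold in 8 member rows and the OHT libraries in 4. In EtOH libraries A and B, Emr1 (the macrophage marker F4/80) had 1882 and 634 normalised reads, and the neutrophil gene Mpo had 18.2 and 160. In OHT libraries A and B the order of both genes was the opposite, with 2375 and 3315 for Emr1 and 351 and 50.2 for Mpo. Both are single genes of their marker lists. The 10 monocyte and macrophage markers summed to 7704 and 8363 in OHT libraries A and B, a smaller difference than that of Emr1 alone. The part of these differences in Rel, Cd14, Ticam1 and Cd180 was not tested.

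Many members could not be measured on the row that stands for them. All 60 genes were matched to RefSeq (GRCm38.p6), where 26 have 1 curated transcript and 34 have several. The median EtOH mean was 102 for the first and 17.7 for the second in the authors' deposited table, and the mean of both groups was under 50 for 26.9% and 55.9% of them. Over all matched genes of the table the shares were 46.2% and 54.2%. Low values of Ikbkg (7 curated transcripts), Irak1 and Tnip1 (5 each), Nfkb2 and Traf7 (3 each) and Ikbkb, Map3k7 and Tnfaip3 (2 each) stand on 1 row or a few, and whether reads shared between transcripts were dropped was not tested. A missing call in these genes does not show an unchanged gene.

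**Figure D4:**
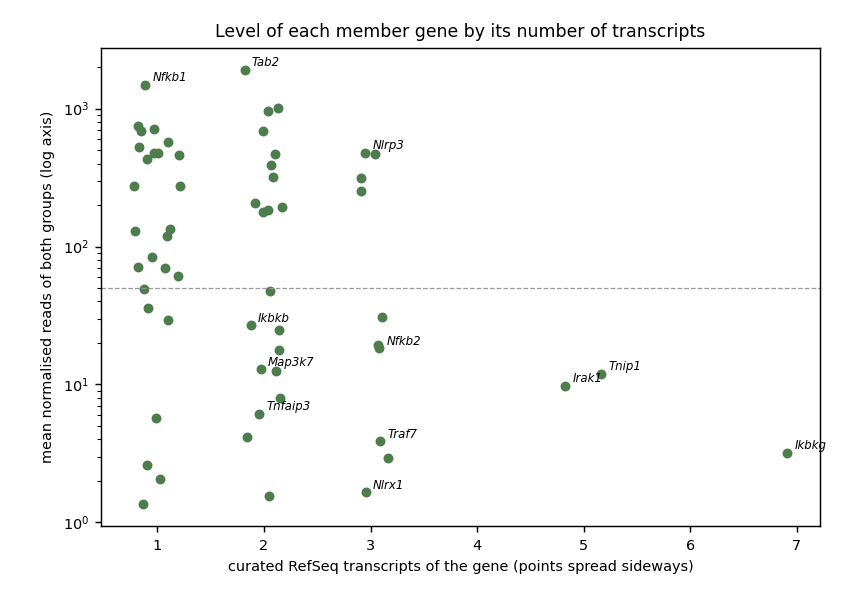
Mean normalised reads of both groups (log axis) for each of the 60 member genes, on its highest row, against the number of its curated RefSeq transcripts (GRCm38.p6). The dashed line is a mean of 50. The 3 genes with 5 or more transcripts, Irak1, Tnip1 and Ikbkg, lie under it, and genes with 1 to 3 transcripts lie on both sides.

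Genes of the same pathways outside the members were taken from 5 lists. Of 102 measured genes, 17 rose and 0 fell by the authors' deposited table (32 higher and 1 lower at an unadjusted p under 0.05). Limma-voom called 28 higher and 0 lower of the 86 it fitted. The median log2 fold change of the 102 genes was 0.56 in the authors' deposited table, beside 0.04 over all genes. Over all 16545 genes that table called 3.94% higher and 2.02% lower, and limma-voom called 9.95% of the genes it fitted higher. At an unadjusted p under 0.05 the authors' deposited table had 1403 of all genes higher and 1188 lower. These values stand beside each list below. Some list genes and some members are also used as markers of mature macrophages, whose levels are given above.

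Of 11 TLR genes 5 rose, and all 11 had a positive log2 fold change, in the authors' deposited table, beside 8536 of all 16545 genes. Tlr3 and Tlr12 were at the floor, with 0 reads with EtOH and 1 and 2 with OHT, so their sign says little. Tlr7, which senses RNA in endosomes, had 87.9 and 48.2 normalised reads with EtOH and 338 and 323 with OHT (4.79-fold, adjusted p = 1.76e-07 in the authors' deposited table). Tlr9, for unmethylated CpG DNA, rose 6.27-fold, Tlr5, for flagellin, 7.73-fold and Tlr13, for bacterial ribosomal RNA, 2.80-fold in the authors' deposited table. In the EtOH libraries Tlr9 had 41 and 7 reads and Tlr5 had 10 and 5, so these 2 folds start from low counts. Of 20 genes of the ubiquitin machinery 2 rose, Tnip3 (8.07-fold, a relative of ABIN-1) and the ubiquitin ligase gene Peli3 (6.58-fold), in the authors' deposited table. The EtOH libraries held 8 and 2 reads of Tnip3 and 8 and 1 of Peli3, so the size of these rises is uncertain.

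None of 16 further kinases and adaptors was called in the authors' deposited table, with 3 higher and 1 lower at an unadjusted p under 0.05, and limma-voom called 2 higher. Card9, the adaptor of C-type lectin receptors, was listed at 1712 and 1434 and the adaptor Pik3ap1 at 937 and 1505 in the authors' deposited table. Of 20 inflammasome effectors and partners 4 rose in the authors' deposited table, namely the caspase-1 gene Casp1 and 3 interleukin genes. Casp1 had 302 and 242 normalised reads with EtOH and 549 and 540 with OHT (means of 273 and 546, adjusted p = 0.0323, in the authors' deposited table). Il1b rose 4.24-fold and Il1a 5.02-fold in the authors' deposited table. Il18, also called there (adjusted p = 0.0312 in the authors' deposited table), had 3 reads with EtOH and 48 with OHT. Of 35 NF-kB target genes 6 rose in the authors' deposited table, among them the adhesion molecule Icam1 (3.61-fold), Ier3 (2.06-fold), Mmp9 (1.90-fold) and Cd83. Cd83, a marker of mature dendritic cells, had 1 read with EtOH and 41 with OHT. The other 2 were Tnfaip2 and Gadd45b. Of the 35 genes, 29 had a positive log2 fold change and 6 a negative one in the authors' deposited table. The lowest was -1.21 for Vcam1, which was not called (adjusted p = 0.644 in the authors' deposited table). Tnf, the classical target, was picked with its values known and had 17 and 6 reads with EtOH and 27 and 17 with OHT (adjusted p = 0.922 in the authors' deposited table).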

How the data were processed

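RNA was taken from 4 samples of MLL-AF9 cells and TruSeq RNA (version 2) libraries were prepared with a kit that does not mark strand, per the labels' protocols. TopHat, DESeq and the mm9 build appear in the submitters' processing notes, without role or version; the read counter is not given in the sources used here. The deposited signal columns are, per the file headers, base means of each group. The deposited ratio (fold) is OHT over EtOH and the deposited log2 values are its logarithm. The deposited p-values come raw and adjusted, the latter within 2.63e-06 of a Benjamini-Hochberg adjustment across the table. Their test's settings are not stated.

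A call is an adjusted p under 0.05 as listed by the authors' deposited table. The 2 means of all 18061 rows solved uniquely to whole reads of 2 libraries plus 1 added read each, with size factors of 1.206 and 0.768 (EtOH) and 1.191 and 0.896 (OHT). Of deliberately altered means, 0.166% (EtOH) and 0.127% (OHT) still had a solution. The limma package 3.58.1 in R 4.3.3 (voom) then compared the groups on these reads, at least 10 reads in 2 libraries, with 2 residual degrees of freedom; solver and fit were tested on simulated data. Counting intervals are exact (Clopper-Pearson), cover counting error only, and the floor is 3 reads per group. Groups overlap unless both libraries of 1 group lie beyond both of the other.

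The members and lists were chosen with earlier results of these data known. Named members passed either test or had the 2 highest means of their role; list genes are the up to 4 smallest adjusted p among calls, or the 2 highest means; the other members are given so that each is accounted for, with their values known. Sequences are RefSeq, GRCm38.p6. Alternatives covered the test, threshold, scaling, filter, single libraries and rows per symbol, the last (summed rows) chosen after seeing the data. Some genes of the lists are not reported here by name.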

Additional observations from a re-analysis of the deposited data

How the results depend on the processing

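The counts of member calls depended on the test and threshold more than on scaling. At an adjusted p under 0.01 the authors' deposited table gave 2 member rows higher and 7 other pathway genes higher, and limma-voom on the solved reads gave 11 and 28 at 0.05. With 1 library left out, limma-voom called 4 to 14 member rows higher and 1 to 2 lower, and 21 to 38 other pathway genes higher and 0 to 1 lower. An omission leaves 1 residual degree of freedom and assumes that the lone library varies like the other group. The member counts were 11 higher and 1 lower under both other scalings, with 1 transcript per symbol and with rows summed per symbol, and 16 and 1 without the filter. Of the 84 refits of the 12 called members, 70 kept the call and direction and 14 kept the direction alone; 4 refits of uncalled named members became calls, all without EtOH library A. Of the other members, Rel became a call without EtOH library A, and Ly86 and Traf5 without OHT library B.

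With 1 library left out, the direction turned in 13 of the 48 fitted members, 8 of them outside the named ones, and in 0 of the 12 called by limma-voom. Limma-voom log2 fold changes ran from -0.12 to 0.16 for Irak4, from -0.12 to 0.089 for Traf6, from -0.24 to 0.071 for Tab2, from -0.28 to 0.74 for Tnip1 and from -0.30 to 0.60 for Nlrp1a. Traf6 was 0.068 under upper-quartile scaling and 0.037 under total-count scaling. The cause was not tested. No paired analysis was possible because the columns carry no replicate numbers of the labels. Rows with at most 3 reads in each group (5 of 65) limit what can be said of those genes.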
